A study of Sus scrofa with 30 samples.

Results

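HMOX1 and PRDX1, 2 genes of the defence against oxidative stress, were followed in pig cerebral cortex through cardiac arrest, resuscitation and reperfusion. They were taken as all probe sets whose only symbol in the array's annotation was HMOX1 or PRDX1, which gave 1 probe set for each gene, or 2 of the 23999 probe sets left once controls were set aside, and 2 of the 6765 genes that a single-symbol probe set stood for. The HMOX1 set is of the type (s_at) whose probes can match several transcripts. Both were among the 16799 probe sets bright enough to be tested. HMOX1 encodes heme oxygenase 1, the inducible enzyme that opens the heme ring and releases biliverdin, iron and carbon monoxide. PRDX1 encodes peroxiredoxin 1, an abundant cytosolic enzyme that reduces hydrogen peroxide and is returned to its active form by thioredoxin. Both genes are known targets of the transcription factor NRF2 in mouse and human cells; HMOX1 is also held down by the heme sensor BACH1, and in the rodent brain it is low at rest and is induced in glia and microglia after ischaemia.

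Each of the 30 arrays held cortex RNA of a pig labelled as a biological replicate, in 10 groups of 3. Methylene blue, a redox dye that can accept and pass on electrons, was given in saline to the groups MB30, MB60 and MB180, and saline alone to SAL30, SAL60 and SAL180. These 6 groups were resuscitated for 8 min after an arrest of 12 min, and the number in the name is the time in min between return of spontaneous circulation and sampling. Groups CA5, CA20 and CA30 had 5, 20 and 30 min of arrest with no resuscitation, and CA0 had 0 min. Saline ran at 55 ml/kg/h and methylene blue at 7.5 mg/kg/h, from 1 min after resuscitation began to 50 min after circulation returned, so the 30 min groups were sampled during the infusion. All animals, CA0 included, were prepubertal Swedish triple breed pigs of both sexes, 12 to 14 weeks old, under pentobarbital at 8 mg/kg/h, so no group shows cortex without anaesthesia. The sex of each pig is not in the labels used here.

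Array measures and markers are described here because several results are set beside them. The arrays of the methylene blue groups had log2 3'/5' ratios of the control transcripts, a sign of RNA quality, of 0.71 to 1.35, against 0.98 to 2.60 in saline groups and 1.07 to 2.71 in groups without resuscitation. The 25th percentile of intensity was 24.7 to 31.8 on methylene blue arrays, against 18.4 to 24.8 on saline arrays and 18.3 to 20.7 on arrays without resuscitation. SAL30 replicate 1 was least like the other arrays (median correlation 0.933) and also had the highest macrophage and microglia marker sum, 5944. All 7 neuronal markers, all 8 astrocyte markers and all 5 oligodendrocyte markers that the array carried were above the filter.

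HMOX1 was at its lowest in cortex without resuscitation, and each of the 18 reperfused arrays was above all 12 others. The share of all tested probe sets with a gap to all 12 arrays was not counted, so how common it is stays unknown. The methylene blue groups had the highest HMOX1. Its intensity was 195, 229 and 184 in MB30, 184, 214 and 293 in MB60, and 161, 237 and 262 in MB180. All 9 of these arrays were above every array without resuscitation; a gap of this kind to CA0 was seen for 19.5% of tested probe sets in MB30, 16.6% in MB60 and 16.7% in MB180. MB60 replicate 3 held the highest HMOX1 value of the 30. The group means were 203 ± 23.7, 230.1 ± 56.3 and 220.0 ± 52.5 in MB30, MB60 and MB180, against 59.4 ± 31.3 in CA0 (SD, n = 3 each). Differences were taken as log2(intensity + 16) with their standard errors, and called where the limma adjusted p was under 0.05. The log2 difference from CA0 was 1.63 ± 0.30 for MB30 (limma adjusted p = 0.00161), where 7.58% of tested probe sets were called higher. It was 1.78 ± 0.30 for MB60 (limma adjusted p = 0.00061), with 7.05% called higher, and 1.72 ± 0.30 for MB180 (limma adjusted p = 0.00096), with 5.7% called higher. These 3 calls held under every alternative processing and with any array left out, the log2 difference staying between 1.14 and 2.08.

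In reperfused cortex under saline, HMOX1 was 168, 127 and 112 in SAL30, 151, 113 and 109.6 in SAL60, and 109, 199 and 204 in SAL180. The lowest of these 9 arrays, at 109, was above the highest of the 12 arrays without resuscitation, at 101. HMOX1 averaged 136 ± 28.7 in SAL30, 125 ± 22.9 in SAL60 and 170.4 ± 53.5 in SAL180, against 59.4 ± 31.3 in CA0 (SD, n = 3 each). The log2 difference from CA0 was 1.09 (95% interval 0.47 to 1.71; limma adjusted p = 0.284) for SAL30 and 0.99 (0.36 to 1.61; limma adjusted p = 0.364) for SAL60. Neither passed the threshold of 0.05, although no array of either group overlapped CA0; such a gap on the higher side was seen for 6.24% of all tested probe sets in SAL30 and for 6.07% in SAL60, while 0.185% were called higher in SAL30 and 0.274% in SAL60. In SAL180 the difference was 1.36 ± 0.30, or 2.57-fold for intensity + 16, and the ratio of mean intensities was 2.87. It passed (limma adjusted p = 0.0204), where 0.619% of all tested probe sets were called higher and 7.76% lay higher without overlap. That call rested on single arrays: without CA0 replicate 1, which held the lowest HMOX1 value, the difference was 0.98 (limma adjusted p = 0.180), without SAL180 replicate 2 it was 1.24 (limma adjusted p = 0.124), and without SAL180 replicate 3 it was 1.22 (limma adjusted p = 0.126). A fit to SAL180 and CA0 alone left the difference at 1.36 with a limma adjusted p of 0.253.

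In cortex without resuscitation, HMOX1 intensity was 25.4, 87.1 and 65.5 in CA0, 68.9, 60.9 and 43.9 in CA5, 39.6, 52.6 and 101 in CA20, and 57.6, 46.5 and 85.3 in CA30. These 4 groups overlapped one another, and the lowest and the second highest of the 12 values both came from CA0. Against CA0, the log2 difference was 0.06 ± 0.30 for CA5, 0.12 ± 0.30 for CA20 and 0.14 ± 0.30 for CA30 (SE; limma adjusted p from 0.997 to 0.9999), with a 95% interval of about 0.6 on either side.

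**Figure D1:**
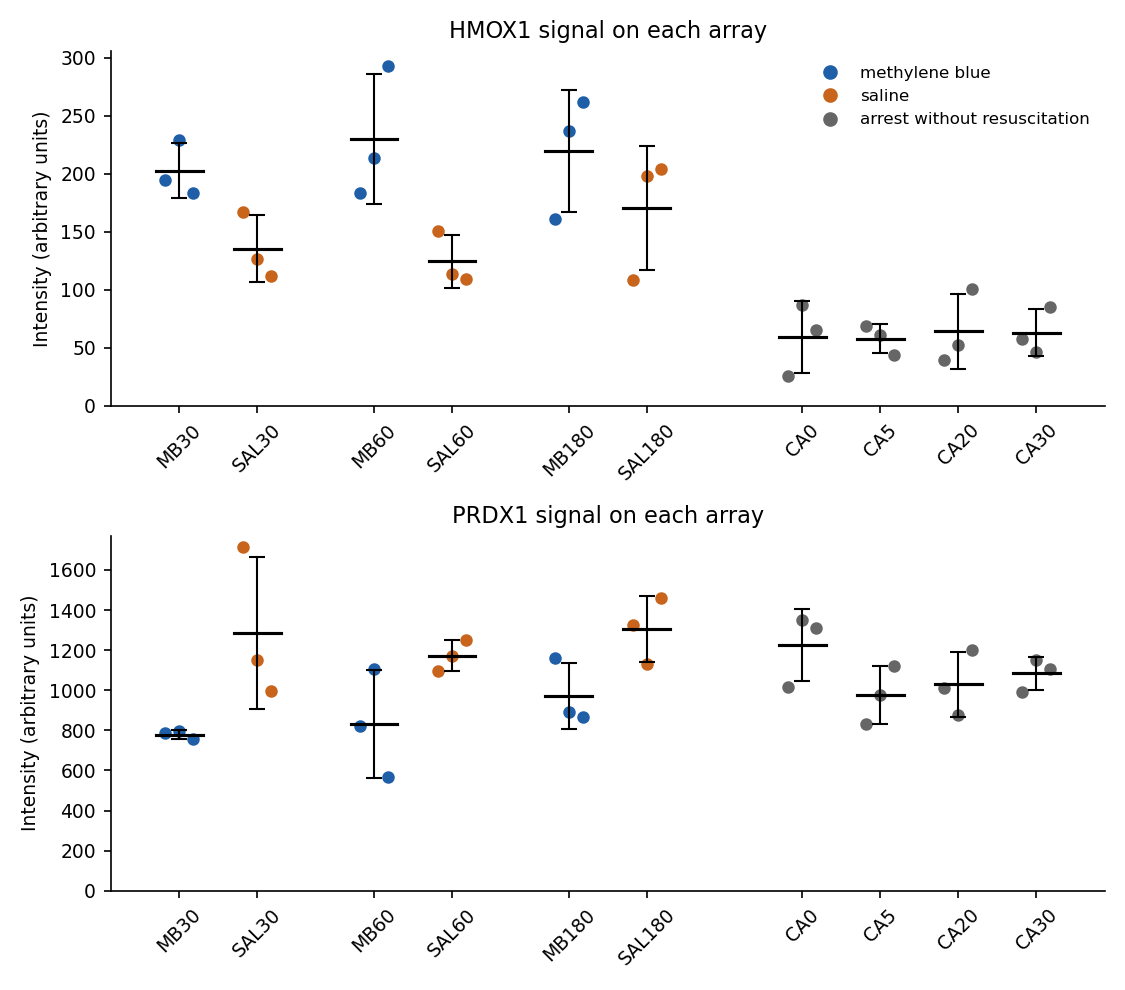
Intensity of HMOX1 and PRDX1 (linear scale, arbitrary units) on each of the 30 arrays, by group, with the group mean and SD over 3 arrays. All 18 reperfused arrays lie above all 12 others for HMOX1, while for PRDX1 7 of the 9 methylene blue arrays lie below every saline array. The shares of all tested probe sets with such patterns were not counted.

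The contrasts above share the CA0 arrays, so the reperfused groups at 180 min were also set against CA30, the longest arrest without resuscitation. HMOX1 was 1.58 log2 units higher in MB180 than in CA30 (limma adjusted p = 0.00327, with 1.71% of tested probe sets called higher). It was 1.22 higher in SAL180 than in CA30 (limma adjusted p = 0.0476, with 0.756% called higher), and this call was lost when any of 20 of the 30 arrays was left out. PRDX1 differed from CA30 by -0.17 in MB180 and by 0.26 in SAL180, and neither passed (limma adjusted p = 0.732 and 0.691).

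The study's treatment comparison sets methylene blue against saline at the same time of reperfusion. For HMOX1 the arrays of MB30 (184 to 229) lay above those of SAL30 (112 to 168), and the arrays of MB60 (184 to 293) above those of SAL60 (109.6 to 151). At 180 min the arrays of MB180 (161 to 262) and SAL180 (109 to 204) overlapped. The log2 difference was 0.54 ± 0.30 at 30 min (95% interval -0.08 to 1.16; limma adjusted p = 0.310), 0.79 ± 0.30 at 60 min (0.17 to 1.42; limma adjusted p = 0.173) and 0.36 ± 0.30 at 180 min (-0.26 to 0.98; limma adjusted p = 0.566), so no single time passed. Groups without overlap on the higher side made up 12.8% of tested probe sets at 30 min and 10.3% at 60 min.

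Averaged over the 3 times, HMOX1 was 0.56 ± 0.17 log2 units higher under methylene blue than under saline (95% interval 0.21 to 0.92, limma adjusted p = 0.01996). This was 1.48-fold for intensity + 16, and the ratio of mean intensities was 1.52. Here 13.8% of tested probe sets were called higher and 11.4% lower, 2313 and 1918 probe sets, so a call was common in this comparison. The direction of those calls depended on the scaling: 1929 were higher and 2404 lower after quantile normalization, and 1502 were higher and 3350 lower after centring on each array's median. HMOX1 itself stayed higher under both, by 0.52 (limma adjusted p = 0.0275) and by 0.47 (limma adjusted p = 0.0448). All 9 methylene blue arrays were above the saline median of 127, and 5 of the 9 were above the highest saline array. How many of all tested probe sets give such counts was not determined. A two-sided exact permutation of the arm within each time gave p = 0.0025 (20 of 8000 relabellings, where the smallest possible p is 0.00025). That p is unadjusted, and the permutation was run for HMOX1 and PRDX1 only. Of all tested probe sets, 38% had an unadjusted limma p under 0.05 in this comparison. With the 3'/5' ratio as a covariate, the mean difference was 0.74 (limma adjusted p = 0.0264), and without SAL30 replicate 1 it was 0.61 (limma adjusted p = 0.0177). With adjustment over all contrasts together the HMOX1 call was lost (limma adjusted p = 0.0965).

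PRDX1 was lower under methylene blue than under saline, and showed no detectable change from CA0 under saline. Its intensity was 785, 796 and 757 in MB30, 819.8, 1107 and 568 in MB60, and 1159, 890.3 and 864 in MB180. MB30 was the tightest group, and MB60 replicate 3, which had the highest HMOX1, had the lowest PRDX1 value of all 30 arrays. Averages were 779 ± 20.3 in MB30 against 1287 ± 378 in SAL30, 831 ± 270 in MB60 against 1172 ± 77.0 in SAL60, and 971 ± 163 in MB180 against 1305 ± 166 in SAL180 (SD, n = 3 each). All 3 MB30 arrays lay below all 3 SAL30 arrays, as did 9.58% of tested probe sets, and the later pairs of groups overlapped.

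In the saline groups PRDX1 was 1713, 1152 and 994 in SAL30, 1096, 1170 and 1249.8 in SAL60, and 1327, 1130 and 1459 in SAL180. SAL30 replicate 1, the array that stood apart from the rest, held the highest PRDX1 value of all 30 arrays, and all 3 saline groups overlapped CA0. The log2 difference from CA0 was 0.04 for SAL30, -0.06 for SAL60 and 0.09 for SAL180 (95% interval for SAL180 -0.31 to 0.50; limma adjusted p from 0.977 to 0.989), and without SAL30 replicate 1 the SAL30 value was -0.18.

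Without resuscitation, PRDX1 intensity was 1018, 1349 and 1311 in CA0, 830.0, 976 and 1123 in CA5, 1009, 876 and 1202 in CA20, and 993, 1150.35 and 1108 in CA30. All 3 arrest groups overlapped CA0, and the log2 differences of -0.32 for CA5, -0.25 for CA20 and -0.17 for CA30 did not pass (SE 0.20; limma adjusted p from 0.988 to 0.9999). Called probe sets were few in these contrasts: limma called 0 (0%) in CA5, where 317 had an unadjusted p under 0.05, 2 in CA20 (0.0119%) and 2 in CA30 (0.0119%).

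The mean PRDX1 difference over the 3 times was -0.54 ± 0.11 log2 units, or 0.685-fold under methylene blue relative to saline (95% interval -0.78 to -0.31, limma adjusted p = 0.00122). In this comparison 11.4% of tested probe sets were called lower and 25.2% in either direction, so a call was common. The number called lower was 1918, against 2404 after quantile normalization and 3350 after median centring. Across the 9 arrays of each arm, 7 methylene blue arrays were below the lowest saline array and all 9 were below the saline median of 1170. How many of all tested probe sets give such counts was not determined. The exact permutation within times gave a two-sided p of 0.001 (8 of 8000 relabellings), unadjusted, where 38% of all tested probe sets had an unadjusted limma p under 0.05. Quantile normalization gave -0.50 (limma adjusted p = 0.00225), median centring -0.64, and the 3'/5' ratio as a covariate -0.52 (limma adjusted p = 0.0216). Without SAL30 replicate 1 it was -0.47 (limma adjusted p = 0.00291). The part that the array measures of the methylene blue groups had in the HMOX1 and PRDX1 differences was not tested beyond this covariate.

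At single times, PRDX1 differed by -0.67 in MB30 relative to SAL30 (95% interval -1.08 to -0.27; limma adjusted p = 0.0493), by -0.54 in MB60 relative to SAL60 (limma adjusted p = 0.154) and by -0.42 in MB180 relative to SAL180 (limma adjusted p = 0.243). Of all tested probe sets, 1.69% were called lower at 30 min, 0.798% at 60 min and 0.619% at 180 min. The 30 min call sat at the threshold and was lost when any of 22 of the 30 arrays was left out; without SAL30 replicate 1 it was -0.45 (limma adjusted p = 0.257). Relative to CA0, PRDX1 was lower in MB30 (-0.63; limma adjusted p = 0.0360; 4.59% of probe sets called lower) and in MB60 (-0.59; limma adjusted p = 0.0473; 5.49% called lower), and it differed by -0.33 in MB180 (limma adjusted p = 0.289). Leaving out any 1 of 5 arrays ended the MB30 call, namely CA0 replicates 2 (limma adjusted p = 0.118) and 3 (0.107) and MB30 replicates 1 (0.0716), 2 (0.0756) and 3 (0.0954). Leaving out any 1 of 18 arrays ended the MB60 call, with a limma adjusted p of up to 0.264 without MB60 replicate 3.

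**Figure D2:**
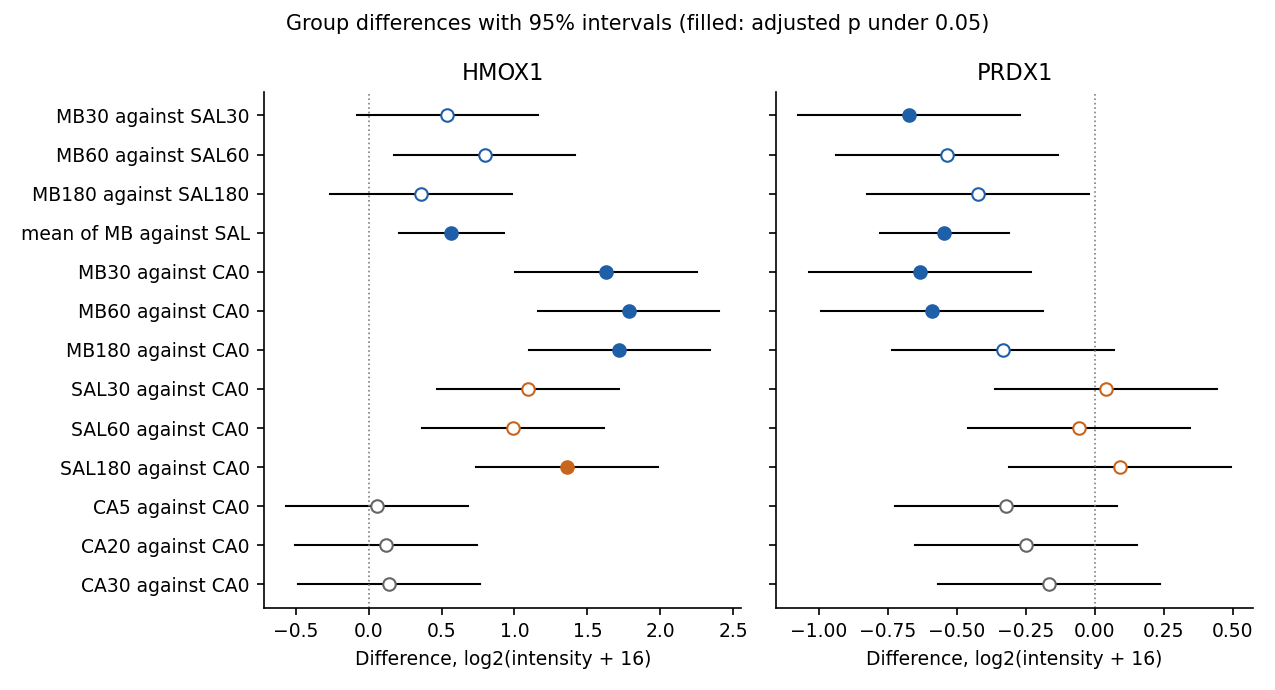
Log2 differences of HMOX1 and PRDX1 with 95% intervals for each contrast, filled where the limma adjusted p is under 0.05. HMOX1 lies to the right in every reperfused group against CA0 and PRDX1 to the left in every methylene blue group against saline.

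Neither gene's treatment difference varied detectably between 30, 60 and 180 min. The limma interaction test gave F = 0.518 for HMOX1 and F = 0.407 for PRDX1, each with an adjusted p of 0.9999. No contrast between times within an arm passed for either gene.

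Ordered by mean log2 level from low to high, HMOX1 ran CA0, CA5, CA20, CA30, SAL60, SAL30, SAL180, MB30, MB180, MB60. The step of 0.85 between CA30 and SAL60 was the only one larger than the SD of its neighbours with arrays that did not overlap, and all other neighbours in that order did not differ beyond their spread. PRDX1 ran MB30, MB60, MB180, CA5, CA20, CA30, SAL60, CA0, SAL30, SAL180. Its neighbours all overlapped, and the step of 0.11 between CA30 and SAL60 alone exceeded the larger SD of the pair. As a rank among the probe sets of its own array, which no scaling of an array by a constant changes, HMOX1 stood at the 58.7th to 71.8th percentile on methylene blue arrays, at the 52.1st to 64.9th on saline arrays and at the 29.8th to 52.1st on arrays without resuscitation. PRDX1 stood at the 83.8th to 92.0th percentile on methylene blue arrays, at the 90.4th to 95.3rd on saline arrays and at the 88.1st to 93.1st on arrays without resuscitation.

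**Figure D3:**
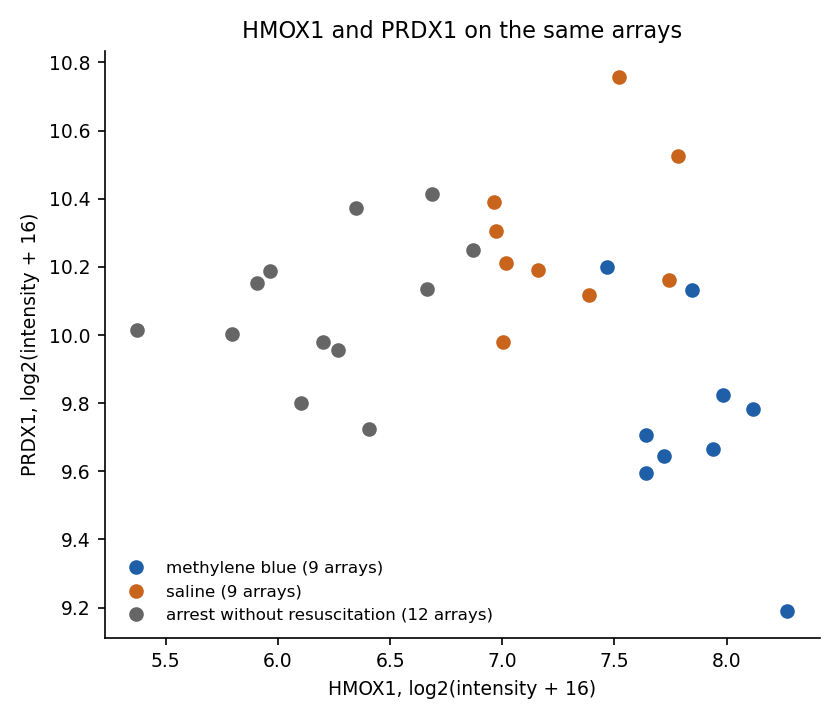
Log2(intensity + 16) of PRDX1 against that of HMOX1 on each of the 30 arrays, coloured by methylene blue, saline or no resuscitation. Methylene blue arrays lie toward higher HMOX1 and lower PRDX1 than saline arrays, and arrays without resuscitation lie at low HMOX1.

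Cortex RNA is bulk RNA, so a change in level per cell and a change in the share of the cells that carry it cannot be told apart. The 10 macrophage and microglia markers on the array, cells in which HMOX1 is known to be inducible, summed to 1763 to 2964 on methylene blue arrays, 1900 to 5944 on saline arrays and 2148 to 4107 on arrays without resuscitation. Of the 9 that were tested, SLC11A1 rose and TYROBP fell in the mean of methylene blue against saline. Over all cell type lists, limma called 8 of 47 tested markers in that mean, a smaller share than the 25.2% of all tested probe sets called there. Among the 8 were SYT1, of 7 neuronal markers, and DCN, of 4 tested choroid plexus and meninges markers, both higher under methylene blue. In SAL180 against CA0 limma called 0 of 47, against 0.875% of all tested probe sets. There 6 markers had an unadjusted p under 0.05, as did 8.73% of all tested probe sets. The 4 red cell markers summed to 894 to 1572 on methylene blue arrays, 685 to 1401 on saline arrays and 1000 to 1580 on arrays without resuscitation. The 11 endothelial markers summed to 3251 to 4604 on methylene blue arrays, 2871 to 4486 on saline arrays and 2771 to 3964 on arrays without resuscitation, and of the 10 tested CDH5 passed, being higher under methylene blue. Of the 8 astrocyte markers, SLC1A3 and NDRG2 were called higher and GLUL lower under methylene blue, 3 of 8 against the 25.2% of all tested probe sets. The 9 neutrophil and other leukocyte markers summed to 304, 409 and 399 in MB180, against 240, 232 and 233 in SAL180. The 3 MB180 arrays were above the other 27, of which SAL30 replicate 1 was highest at 302. Of these 9 markers, 8 were below the filter. S100A8 (55.7 to 67.4 in MB180, 22.6 to 24.3 in SAL180) and CD2 (21.6 to 32.9 and 3.5 to 19.0), both below the filter, did not overlap between these groups. The share of all probe sets with such a gap between MB180 and SAL180 was not counted. The 25th percentile of intensity was itself 25.2 to 31.8 on MB180 arrays and 18.4 to 23.7 on SAL180 arrays. The other markers on the list overlapped, with PTPRC at 16.9 to 26.7 in MB180 and 13.0 to 32.7 in SAL180. The sums over all groups were 184 to 409 on methylene blue arrays, 177 to 302 on saline arrays and 159 to 247 on arrays without resuscitation. The part of these cells in the HMOX1 and PRDX1 values was not tested.

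Counts of list genes in the treatment comparison are to be read against the 25.2% of all tested probe sets called there. With the 3'/5' ratio as a covariate, 8 of the 10 list calls were lost, and TKT (-0.31, limma adjusted p = 0.0242) and POR (-0.38, limma adjusted p = 0.0452) still passed.

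Of the 10 tested genes of heme and iron handling around HMOX1, 3 passed in the treatment comparison, a share near the background. In the mean of methylene blue against saline, IREB2, an iron sensor that binds mRNA, was higher (0.51 ± 0.13, limma adjusted p = 0.0067), while POR, which passes electrons to heme oxygenase, was lower (-0.43 ± 0.10, limma adjusted p = 0.0025), and SLC11A2, an iron importer, was lower (-0.34 ± 0.11, limma adjusted p = 0.0330). The constitutive HMOX2 differed by -0.15 ± 0.09 (limma adjusted p = 0.207), and biliverdin reductase BLVRA (-0.11) and the ferritin chains FTH1 (0.14) and FTL (-0.17), all chosen for their place in the pathway with their values seen, did not pass either. ALAS1, the first enzyme of heme synthesis, differed by 0.05 and did not pass.

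Among the other peroxiredoxins, the mitochondrial and peroxisomal PRDX5 fell by 0.36 under methylene blue relative to saline (limma adjusted p = 0.00911), and with the 3'/5' ratio as a covariate it differed by -0.23 (limma adjusted p = 0.209). Its intensity averaged 1337 ± 231 over the 9 methylene blue arrays and 1719 ± 263 over the 9 saline arrays, with ranges of 1046 to 1671 and 1297 to 2125. At 30 min PRDX5 was lower by 0.65 as well (limma adjusted p = 0.0310). PRDX2 (0.03), PRDX3 (-0.09), PRDX4 (0.06) and PRDX6 (-0.20) did not pass. A dimmer PRDX4 probe set had the opposite sign, at -0.21 (limma adjusted p = 0.168).

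The thioredoxin system that recycles PRDX1 had 1 called gene of 13 in the treatment comparison, a share below the 25.2% of the background, as were those of the lists that follow. TXNIP, an inhibitor of thioredoxin, was lower (-0.52 ± 0.12, limma adjusted p = 0.0026), but not with the 3'/5' ratio as a covariate (-0.43, limma adjusted p = 0.0618). TXNRD1, thioredoxin reductase and outside the naming rule, was at 0.42 ± 0.22 (limma adjusted p = 0.153), and GLRX5 (0.19), MSRA (-0.01) and MSRB1 (0.00) did not pass. Of 7 superoxide dismutases, catalase and glutathione peroxidases limma called 0, and 0 had an unadjusted p under 0.05, with SOD1 at 0.12, SOD2 at -0.02, GPX1 at 0.03, GPX2 at -0.10 and GPX7 at 0.25. Of 12 glutathione genes GCLM, the modifier subunit of glutathione synthesis, was higher (0.54 ± 0.13, limma adjusted p = 0.0033), with GSR at 0.17 and GSTA4 at -0.09 not passing. Of 9 genes for NADPH and quinone reduction, TKT (-0.45 ± 0.08, limma adjusted p = 0.0003) and EPHX1 (-0.79 ± 0.22, limma adjusted p = 0.0108) were lower, and NQO2 (0.14) and AKR1A1 (-0.17) did not pass. SQSTM1, the only gene of 9 NRF2 regulators that was tested, differed by -0.13. In SAL180 against CA0, limma called 0 of the 57 genes of the 7 lists described so far, against 0.875% of all tested probe sets, and 4 had an unadjusted p under 0.05, as did 8.73% of all tested probe sets. Their median log2 difference was 0.03, against 0.00088 over all tested probe sets.

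Of the 12 tested stress-inducible genes, a list chosen with these results known, 9 passed as higher in SAL180 than in CA0. They were ATF3, DDIT3, DNAJB1, HSP70.2, HSPA6, BAG3, HSPB1, HSPB8 and GADD45A, and 6 passed in SAL30 and in SAL60. Among all tested probe sets, 0.619% were called higher in SAL180, 0.185% in SAL30 and 0.274% in SAL60. Because of how the list was chosen, setting its share against these is no test. DDIT3 (0.33 ± 0.08, limma adjusted p = 0.0057) and HSPB8 (0.39 ± 0.09, limma adjusted p = 0.0019) were also higher under methylene blue than under saline. Neither passed with the 3'/5' ratio as a covariate, DDIT3 at 0.24 (limma adjusted p = 0.130) and HSPB8 at 0.27 (limma adjusted p = 0.0826). Over all 69 genes of the lists, 4 passed as higher and 6 as lower in the treatment comparison, a smaller share than the background, and the median was 0.01, against 0.02 over all tested probe sets.

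**Figure D4:**
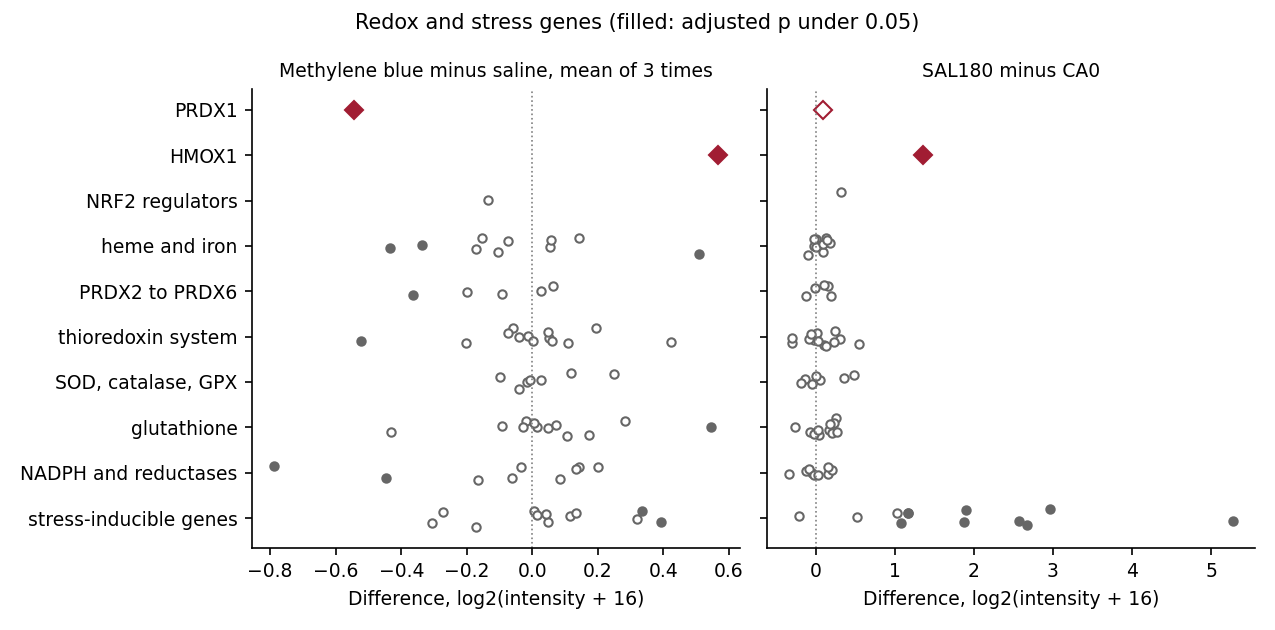
Log2 differences of HMOX1, PRDX1 and each tested list gene, as the mean of methylene blue against saline (left) and SAL180 against CA0 (right), by list, filled where the limma adjusted p is under 0.05. In SAL180 against CA0 the 9 filled list genes all lie among the stress-inducible genes, a list chosen with these results known.

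Likeness was measured as Pearson's r of log2 values over the 30 arrays, with 7847 probe sets of 5772 genes compared, and is a description, since arrays of a group share their condition. The 5 genes most like HMOX1 were HSP70.2 (0.88), BAG3 (0.86), DNAJB1 (0.85), ADAMTS1 (0.84) and HSPA6 (0.84), of which HSP70.2, BAG3, DNAJB1 and HSPA6 are chaperones or their partners and ADAMTS1 is a matrix protease. Within groups, as deviations from group means, the same 5 had r of 0.51, 0.22, 0.21, -0.04 and -0.16. The least alike were TTC14 (-0.83) and DGCR8 (-0.78).

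The 5 genes most like PRDX1 were SLC12A4 (0.87), SLA-DMA (0.83), RNPEP (0.83), TSC22D3 (0.82) and TRIM52 (0.81). Their r within groups was 0.76, 0.74, 0.75, 0.63 and 0.61. These genes were picked by r over the same arrays, which includes the deviations within groups, so the values are no separate test of likeness. The least alike were RTN1 (-0.81) and FBXW7 (-0.77). HMOX1 and PRDX1 had r = -0.24 over arrays and 0.08 within groups.

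**Figure D5:**
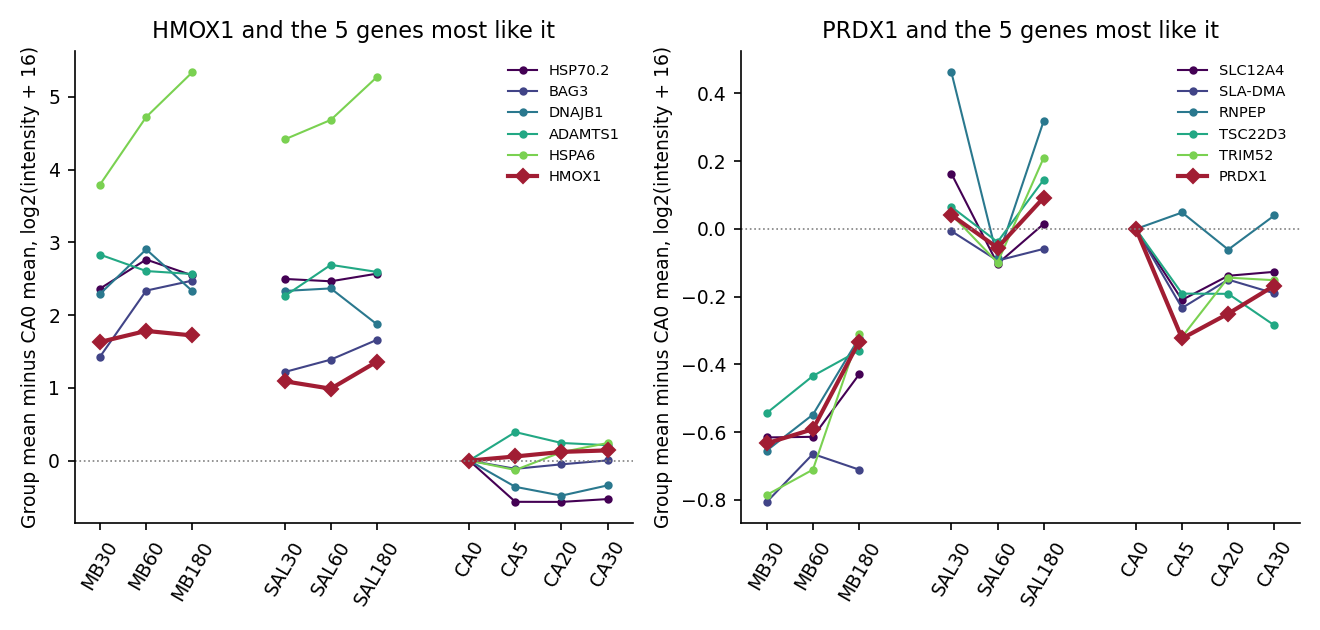
Group means of log2(intensity + 16), less CA0, for HMOX1 and PRDX1 and for the 5 genes most like each. The HMOX1 panel separates the reperfused groups from the others, and the PRDX1 panel separates the methylene blue groups from the saline groups.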

How the data were processed

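The authors scaled each array with GCOS, per the submitters' processing notes, and deposited linear intensities; no version or algorithm is named there. Of 24123 probe sets, 124 controls were left out. Analysis used log2(intensity + 16) without probe sets under the 30th percentile of mean log2, an intensity of 29.5. One model with 10 group means was fitted to all 30 arrays (limma 3.58.1, R 4.3.3; trended empirical Bayes; 20 residual degrees of freedom), and two-sided p-values were adjusted by Benjamini-Hochberg over 16799 probe sets per contrast, with a threshold of 0.05. The model was also run on simulated data, with independent normal noise on each probe set and changes set in SAL180 only. That simulation held no differences shared by the probe sets of an array, so it does not bear on their effect. The platform's table gave 1 symbol for 10069 probe sets.

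The members and gene lists were chosen with earlier results of these data known. Named list genes were those called in a described contrast and the 2 with the smallest p per list in SAL180 against CA0, MB180 against SAL180 and the mean treatment difference. Likeness named the 5 highest and 2 lowest. Lists took the brightest probe set of a gene. With 3 arrays per group, their number limits the precision.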

Additional observations from a re-analysis of the deposited data

How the results depend on the processing

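Of 1892 recomputed HMOX1 and PRDX1 values, over 12 planned settings, 30 arrays left out in turn and 1 fit, chosen after seeing the data, without the 3 arrays least like the others, 1765 kept their direction and side of the threshold, 97 fell short of it and 1 newly passed it; 29 changed sign, 0 of them a called difference. HMOX1 in MB30, MB60 and MB180 against CA0 and in MB180 against CA30, and PRDX1 in the mean of methylene blue against saline (-0.64 to -0.46), passed under all of them. The mean HMOX1 treatment difference (0.45 to 0.74) was lost only with adjustment over all contrasts together (0.56, limma adjusted p = 0.0965).

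Arrays of different groups with the same replicate number had a median correlation of deviations of -0.0034, over 0.1 in 28 of 135 pairs. For other numbers the median was -0.0105, over 0.1 in 63 of 270 pairs, so no pairing by replicate number was seen. With the number as a replicate block, PRDX1 in MB60 against CA0 (-0.59, limma adjusted p = 0.0590) and in MB30 against SAL30 (-0.67, limma adjusted p = 0.0616) no longer passed, and no other HMOX1 or PRDX1 call changed.

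The cause of the following losses was not tested. HMOX1 in SAL180 against CA0 gave 1.36 in the compared groups alone and 0.98 to 1.64 with an array left out. HMOX1 in SAL180 against CA30 fell short with a pseudocount of 1 (1.41), with the 3'/5' ratio (1.02), and at 1.22 with no filter, with the compared groups alone, with no intensity trend and without the 3 arrays; it was 1.06 to 1.49 with an array left out. PRDX1 in MB30 against SAL30 fell short with a pseudocount of 1 (-0.68), quantile normalization (-0.65), array weights (-0.57), the 3'/5' ratio (-0.66), without the 3 arrays (-0.45), and at -0.67 with no filter, the 50th percentile filter, the compared groups alone, no trend or adjustment over all contrasts; the range was -0.84 to -0.45 with an array left out. PRDX1 in MB30 against CA0 fell short with quantile normalization (-0.57), the 3'/5' ratio (-0.59) and all contrasts (-0.63; -0.76 to -0.56 with an array left out). PRDX1 in MB60 against CA0 fell short with quantile normalization (-0.53), the 3'/5' ratio (-0.56), and at -0.59 with no filter, the compared groups alone, no trend or all contrasts (-0.82 to -0.35 with an array left out). Without the 3 arrays, PRDX1 in MB60 against SAL60 passed (-0.76, limma adjusted p = 0.0491).

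Sign changes concerned differences that did not pass. With an array left out, HMOX1 against CA0 ran from -0.33 to 0.33 in CA5, -0.26 to 0.39 in CA20 and -0.24 to 0.42 in CA30. HMOX1 between times ran from -0.23 to 0.044 in SAL60 against SAL30 (0.015 with array weights, 0.044 without the 3 arrays), -0.023 to 0.29 in MB60 against MB30, -0.20 to 0.13 in MB180 against MB60 (0.033 with array weights), and -0.041 to 0.28 in MB180 against MB30 (-0.041 without the 3 arrays). PRDX1 against CA0 ran from -0.18 to 0.21 in SAL30 (-0.059 with median centring, -0.075 with array weights, -0.18 without the 3 arrays), -0.18 to 0.018 in SAL60 and -0.034 to 0.19 in SAL180. PRDX1 between times ran from -0.26 to 0.13 in SAL60 against SAL30 (0.13 without the 3 arrays), -0.11 to 0.27 in SAL180 against SAL30 and -0.19 to 0.29 in MB60 against MB30 (-0.19 without the 3 arrays).

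List genes called in the treatment comparison were 10, against 19 with all probe sets of a gene and 3 with the 3'/5' ratio, of which 2 (TKT and POR) were among the 10 and HSPA6 (-0.38) was not. Probe sets called there were 4231, against 1457 with the 3'/5' ratio and 1989 over all contrasts; in MB30 against SAL30 687, against 27 in the compared groups alone; in MB60 against SAL60 256, against 63 in the compared groups alone and 78 with the 3'/5' ratio; in MB180 against SAL180 319, against 15, 18, 672 and 1258 in the compared groups alone, with the 3'/5' ratio, with median centring and with array weights; in SAL180 against CA0 147, against 55 in the compared groups alone and 362 with array weights. Median centring moved the median of all probe sets in MB30, MB60 and MB180 against CA0 to -0.15, -0.13 and -0.13, from 0.04, 0.01 and 0.04.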
